A study of Mus musculus with 441 samples.

Results

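S100a6, Lgals1, Tagln, Acta2 and Tmsb4x encode small proteins that bind or build the actin cytoskeleton or are abundant in mesenchymal cells. They were taken by name from each table of the series, and were chosen by their bulk RNA levels, which were much lower in 2 mouse embryonic stem cell (mESC) cultures than in the reference culture. All 5 were present among 21001 names of the bulk RNA table, 22443 of the mESC single-cell table, 18873 of the neural single-cell table and 23167 windows of the ChIP table. The reference was the v6.5 line grown with serum and LIF, the cytokine that holds mESCs in an undifferentiated state. The first comparison culture was v6.5 under 2i and LIF, where 2i is a set of 2 kinase inhibitors used in place of serum. The second was a Dgcr8 -/- line made in the v6.5 background and grown in serum and LIF, which cannot process most microRNAs. Neural precursor cells (NPCs) were differentiated from v6.5 in vitro, selected in ITSFn medium, expanded in N2 with bFGF on laminin, and described as nestin-positive.

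Actin exists as free monomers and as filaments, and cells shift between these states as they spread, divide or contract. Tmsb4x (thymosin beta 4) holds monomers in reserve. Acta2 (smooth muscle alpha actin) is itself an actin, and Tagln (transgelin, SM22) binds filaments. Both are classical targets of serum response factor (SRF) and its actin-sensing partners, the MRTFs, which bind CArG boxes near such genes. S100a6 (calcyclin) is a calcium-binding protein of the S100 family whose partners include annexins, and Lgals1 (galectin 1) is a lectin secreted by many mesenchymal cells. All are better known from fibroblasts, smooth muscle or migrating cells than from mESCs.

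The promoters below span 250 bases before to 50 bases after the RefSeq transcription start (build GRCm38.p6) and were printed because CArG-box control is the best known link between such genes. 3 of the 5 members had a promoter in the RefSeq table: S100a6 at chr3:90612644-90612943 on the plus strand, Acta2 at chr19:34255324-34255623 on the minus strand and Tmsb4x at chrX:167209169-167209468 on the minus strand. Lgals1 and Tagln are named only. Sequences read 5′ to 3′ on the gene's strand.
S100a6: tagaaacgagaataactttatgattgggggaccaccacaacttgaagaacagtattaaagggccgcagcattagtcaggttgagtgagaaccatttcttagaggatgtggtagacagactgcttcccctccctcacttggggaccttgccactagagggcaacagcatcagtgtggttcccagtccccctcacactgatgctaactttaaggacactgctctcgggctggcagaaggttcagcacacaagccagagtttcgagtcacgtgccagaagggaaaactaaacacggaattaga
Acta2: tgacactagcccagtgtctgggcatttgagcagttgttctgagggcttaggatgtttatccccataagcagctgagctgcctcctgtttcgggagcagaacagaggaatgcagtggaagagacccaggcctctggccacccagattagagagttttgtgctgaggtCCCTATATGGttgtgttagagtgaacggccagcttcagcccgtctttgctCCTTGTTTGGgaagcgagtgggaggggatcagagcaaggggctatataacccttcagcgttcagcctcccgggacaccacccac
Tmsb4x: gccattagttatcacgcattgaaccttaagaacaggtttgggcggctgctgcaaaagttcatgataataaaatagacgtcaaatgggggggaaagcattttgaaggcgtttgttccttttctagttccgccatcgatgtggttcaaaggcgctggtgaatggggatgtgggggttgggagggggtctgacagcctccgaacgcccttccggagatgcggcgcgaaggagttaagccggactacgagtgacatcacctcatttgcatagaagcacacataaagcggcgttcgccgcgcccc
Capitals in Acta2 mark 2 matches to a relaxed CArG box, CC, then 6 bases of which 1 is not A or T, then GG. They were CCCTATATGG, whose first base lay at -84 from the start, and CCTTGTTTGG at -34. Such a match occurred in 8.58% of 27025 promoters of the same length. A strict CArG box, with only A or T between CC and GG, occurred in 1.57% of them and in none of the 3 windows. The same was so for TATAAA (14.2% of promoters) and the AP-1 site TGANTCA (7.93%), searched on both strands. Tmsb4x held 1 GC box, GGGCGG at -211, a motif found in 35.9% of promoters and left in lower case. A match describes the letters and not a bound site.

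RNA was measured in bulk from 2 serum, 1 2i and 2 Dgcr8 -/- libraries, and in single cells captured in microfluidic C1 chambers and amplified by SMART-Seq. Values are TPM, a transcript abundance scaled to gene length and library total that keeps no read depth. In place of depth, genes at 1 TPM or more numbered 8365 and 7560 in bulk serum, 8989 under 2i, and 11054 and 10818 without Dgcr8. As plate medians per cell they numbered 7779 and 7646 in serum, 9972 under 2i, 9315 without Dgcr8 and 7351 in NPCs. Among mESCs the serum samples thus had the fewest, and the part of this in the changes over all genes was not tested. Dgcr8 itself read 10.6 and 10.3 TPM in bulk serum, 4.66 under 2i and 4.03 and 2.2 in the Dgcr8 -/- libraries, and these whole-gene values do not show which part was deleted. On the plates it averaged 72.5 and 27 TPM in serum cells, 34 under 2i and 16 in Dgcr8 -/- cells, where 79 of 84 cells had it at 1 TPM or more. All 8 pluripotency markers listed were at 1 TPM or more in every bulk mESC library. Nothing in the labels says that samples of a group came from separate cultures, so each p-value reflects just the variation among these samples, possibly technical.

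In bulk RNA all 5 members were highest in both serum libraries, and the serum values did not overlap with the others for any of them. Of 10078 genes, 9.02% had both serum libraries above the other 3. The members were chosen by these bulk values, which are a description without a test. Tmsb4x, the most abundant, read 2645 and 2813 TPM in serum, 82.5 under 2i, and 319 and 293 without Dgcr8. Tmsb4x and Tagln were lowest under 2i, and the other members were lowest without Dgcr8. Lgals1 read 373 and 365 TPM in serum, 52.3 under 2i, and 21.6 and 17.1 without Dgcr8. S100a6 read 150 and 122 TPM in serum, 3.89 under 2i, and 1.16 and 1.63 without Dgcr8. For both genes the 2i library lay between the serum and knockout libraries.

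Tagln read 19.5 and 16.9 TPM in serum, was listed at 0 under 2i, and read 0.15 and 0.08 without Dgcr8. Acta2 read 39.9 and 54.3 TPM in serum, 12 under 2i, and 7.34 and 4.65 without Dgcr8. The Acta2 change was the smallest of the 5, at -1.87 under 2i and -2.79 without Dgcr8 on the log2(TPM + 1) scale. In bulk RNA, fewer cells that express a gene and less RNA per cell cannot be told apart. Both contrasts use the same serum libraries.

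**Figure D1:**
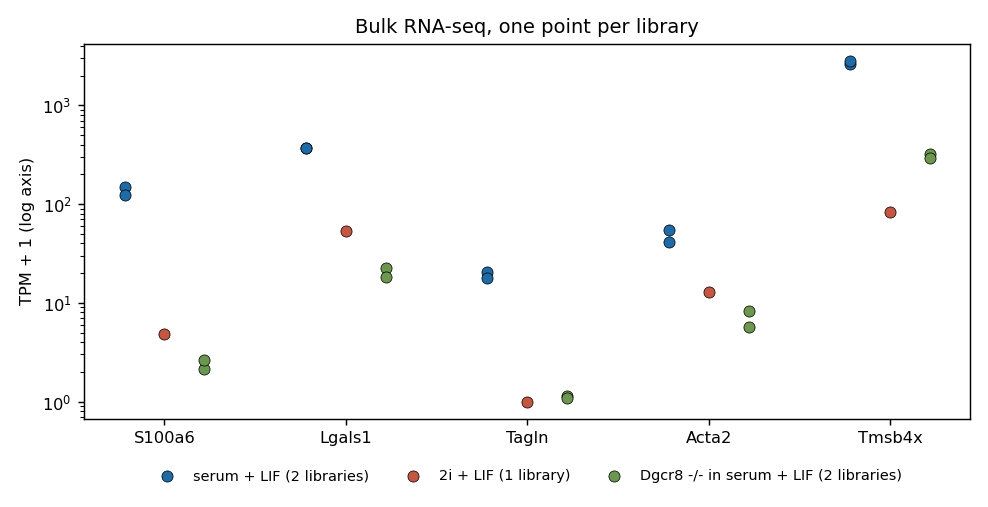
Level of each member in the 5 bulk libraries, on a log axis of TPM + 1, with 1 point per library. Both serum points lie above the 2i and Dgcr8 -/- points for each member, and Tagln sits at 0 TPM under 2i.

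Fibroblast, smooth muscle and epithelial markers were read in the same libraries. Of 25 fibroblast and mesenchymal markers, 19 were in the bulk table and 2 to 4 reached 1 TPM in each library. Col1a2, Dcn, Prrx1 and Twist1 were at 0 in all 5. The summed level of the list ran against the members, at 197 and 242 TPM in serum, 580 under 2i, and 533 and 570 without Dgcr8, most of it from Sparc and Fn1, which encode matrix proteins. A list of 9 trophoblast and simple epithelial markers moved with the members. Its sum was 288 and 315 TPM in serum, 7.48 under 2i, and 123 and 130 without Dgcr8, and 5 of its 6 tested genes fell in each contrast. Krt8, a keratin, read 34.2 and 32.1 TPM in serum, 0.22 under 2i, and 15.5 and 18.1 without Dgcr8. The part of such cells in the members' bulk levels was not tested. Averaged over the cells of a plate, the same list summed to 64.4 and 233 TPM on the serum plates, 22.4 under 2i and 150 without Dgcr8.

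The wider actin lists moved in both directions. By limma with Benjamini-Hochberg adjustment over 10078 genes, 20.4% of genes rose and 11.7% fell under 2i, and 62.5% rose and 11.7% fell without Dgcr8. Of 33 tested genes among 45 SRF/MRTF targets and contractile genes, 5 rose and 11 fell under 2i, with a median log2 change of -0.44 beside 0.20 over all genes. Without Dgcr8 15 rose and 10 fell, with a median of 0.41 beside 0.92. After each library was centred on its median gene, the list split into 3 that rose and 13 that fell under 2i, and 5 and 20 without Dgcr8. Over all genes the same centring gave 1385 that rose and 1875 that fell under 2i, and 2192 and 3678 without Dgcr8.

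Among contractile genes, Tpm1 (a tropomyosin that coats filaments) fell in both contrasts by limma, by 4.76 under 2i and 2.16 without Dgcr8 on the log2 scale. Its levels were 169 and 141 TPM in serum, 4.74 under 2i, and 27.8 and 41.3 without Dgcr8. Myl9, a myosin light chain of smooth muscle, fell by 3.43 and 2.66, from 13.2 and 10.8 TPM to 0.20 under 2i and 0.47 and 1.85 without Dgcr8. Lima1, which crosslinks filaments, went the other way and rose by 2.55 and 4.11. Tpm2 fell under 2i alone among the calls, by 2.87, and Acta1 (skeletal muscle actin) fell without Dgcr8 alone, by 1.93, with the difference between contrasts not tested. Pdlim7 rose without Dgcr8 by 2.04.

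Of 32 genes for actin monomer binding and filament turnover, the group nearest to Tmsb4x, 9 rose and 7 fell under 2i, and 18 rose and 9 fell without Dgcr8. Their medians, -0.16 and 0.98, lay beside 0.20 and 0.92 over all genes, and centring turned the balance to 6 that rose and 11 that fell under 2i, and 9 and 15 without Dgcr8. Dstn (destrin, which severs filaments) fell in both, from 678 and 643 TPM in serum to 93.3 under 2i and 232 and 241 without Dgcr8. Gsn (gelsolin) fell by 2.96 and 0.75. Coro1b, a regulator of branched actin, rose by 1.08 and 3.06. Pls3, Cfl2 and Pfn2 rose without Dgcr8 by 2.68, 2.46 and 2.39. Tmsb10, the paralog of Tmsb4x, kept a high level throughout, at 762 and 817 TPM in serum, 1115 under 2i, and 468 and 488 without Dgcr8.

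Of 15 tested S100 and annexin genes, 4 rose and 7 fell under 2i, and 9 rose and 3 fell without Dgcr8. Over all genes 20.4% rose and 11.7% fell under 2i, and 62.5% rose and 11.7% fell without Dgcr8. The medians of the list were -0.76 and 0.65, beside 0.20 and 0.92 over all genes. Centred, 3 rose and 7 fell under 2i, and 5 rose and 8 fell without Dgcr8, which turned the knockout balance. Anxa3 and Anxa1, calcium-dependent membrane-binding proteins, fell in both contrasts. Anxa3 fell by 3.63 under 2i and by 2.93 without Dgcr8, and Anxa1 fell by 3.17 and 1.5. Anxa2 fell by 5.26 under 2i, from 80.5 and 64.7 TPM to 0.91, and read 84.9 and 85.2 without Dgcr8. S100a1 rose in both, by 3.02 and 3.96. Anxa7 and Anxa4 rose without Dgcr8 by 3.46 and 2.76. S100a10, a partner of Anxa2, read 126 and 109 TPM in serum, 26.9 under 2i, and 37.5 and 29.6 without Dgcr8. S100a11 read 420 and 382 TPM in serum and 90.8 under 2i, but 576 and 550 without Dgcr8, unlike S100a6. S100a4 read at most 0.27 TPM in any bulk library.

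Of 3 tested galectins beside Lgals1, none rose and 2 fell under 2i, and 3 rose and none fell without Dgcr8. Over all genes 11.7% fell under 2i and 62.5% rose without Dgcr8. Lgals9 fell by 3.47 under 2i and rose by 0.88 without Dgcr8. Lgals3 fell by 1.03 under 2i and rose by 2.38 without Dgcr8, and Lgals8 rose there by 2.50. Lgals1 itself was lowest without Dgcr8. Among the other paralogs, Tagln2 read 301 and 259 TPM in serum, 42 under 2i, and 475 and 467 without Dgcr8, where Tagln was near 0. Tagln3 rose by 1.09 and 2.88. Actb and Actg1, the cytoplasmic actins, changed by -0.44 and -1.14 under 2i and by -1.02 and -0.91 without Dgcr8.

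Single cells gave a second reading of the same cultures, from 90 and 93 serum cells on 2 plates, 94 2i cells, 84 Dgcr8 -/- cells and 54 NPCs. Here the cells of a plate were averaged and the plate was the unit of the test, over 12394 genes. The members were chosen by bulk levels in these same conditions, with earlier results known. Each plate test of a member below, under any scaling, is therefore not an independent check. Tmsb4x averaged 1054 and 1490 TPM on the serum plates, 146 under 2i and 447 without Dgcr8, and every mESC had it at 1 TPM or more. By limma it fell by 3.09 under 2i (SE 0.34, adjusted p = 0.0365). Without Dgcr8 its change was -1.48 (SE 0.34, adjusted p = 0.0633). S100a6 averaged 205 and 473 TPM in serum, 19.3 under 2i and 9.55 without Dgcr8. It fell by 4.89 without Dgcr8 (SE 0.71, adjusted p = 0.0371 by limma), and its change under 2i was -3.95 (SE 0.71, adjusted p = 0.0524). These were the calls among the 10 member tests, in a fit that called 39% of genes higher and 1.82% lower under 2i, and 50% higher and 2.97% lower without Dgcr8.

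The remaining members did not pass on the plates. Acta2 averaged 32.3 and 11.9 TPM in serum, 3.53 under 2i and 1.05 without Dgcr8, with log2 changes of -2.19 and -3.34 (limma adjusted p = 0.134 and 0.0709). Tagln averaged 9.74 and 1.22 TPM in serum, 0 under 2i and 0.83 without Dgcr8, with changes of -2.29 and -1.41 (limma adjusted p = 0.240 and 0.414). The serum plates themselves differed widely for these genes. Actc1, another actin, averaged 28.1 and 9.99 TPM in serum, 4.42 under 2i and 1.15 without Dgcr8, levels close to those of Acta2. The share of each actin in these values is uncertain, as described below. The median gene was 1.24 higher under 2i and 1.38 higher without Dgcr8 on the log2 scale, so the members' changes are larger relative to it. Centred on the median gene, all 10 changes passed the limma test, while genes that rose and fell numbered 1767 and 2562 under 2i and 2170 and 3502 without Dgcr8.

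Lgals1 was the member whose 2 readings parted. Its plate means were 79.7 and 193 TPM in serum, 108 under 2i and 52.3 without Dgcr8, where bulk 2i had read 52.3 against 373 and 365 in serum. The plate change under 2i was -0.20 (SE 0.74, limma adjusted p = 0.831) and without Dgcr8 -1.23 (SE 0.74, adjusted p = 0.257). The median cell held 45.1 and 51.3 TPM in serum and 97.5 under 2i, so the middle of the 2i plate lay above both serum plates. Of 94 2i cells, 94 had Lgals1 at 1 TPM or more and 47.9% had 100 TPM or more. On the serum plates 24.4% and 31.2% of cells reached 100 TPM.

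Detection followed the level. S100a6 was at 1 TPM or more in 87 of 90 and 93 of 93 serum cells, in 66 of 94 2i cells (70.2%, exact binomial 95% interval 59.9 to 79.2%) and in 27 of 84 knockout cells (32.1%, 22.4 to 43.2%). Intervals cover counting error over cells only. Acta2 was found in 88 of 90 and 93 of 93 serum cells, in 68 of 94 2i cells and in 27 of 84 knockout cells. Actc1 was found in 88 and 91 serum cells, 76 2i cells and 28 knockout cells, and reads may be shared between these actins. Tagln was found in 45 of 90 and 29 of 93 serum cells and in 6 of 84 knockout cells. It was listed at 0 in all 94 2i cells. On the 2i and knockout plates no gene that is above 0 at all is above 0 in fewer than 5 cells. A gene listed at 0 in all cells there may thus stand for fewer than 5 cells, and no interval is given for it. All 5 members were at 1 TPM or more in 44 of 90 and 29 of 93 serum cells, and in no 2i or knockout cell. The 6 knockout cells with Tagln had S100a6 or Acta2 at 0.

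**Figure D2:**
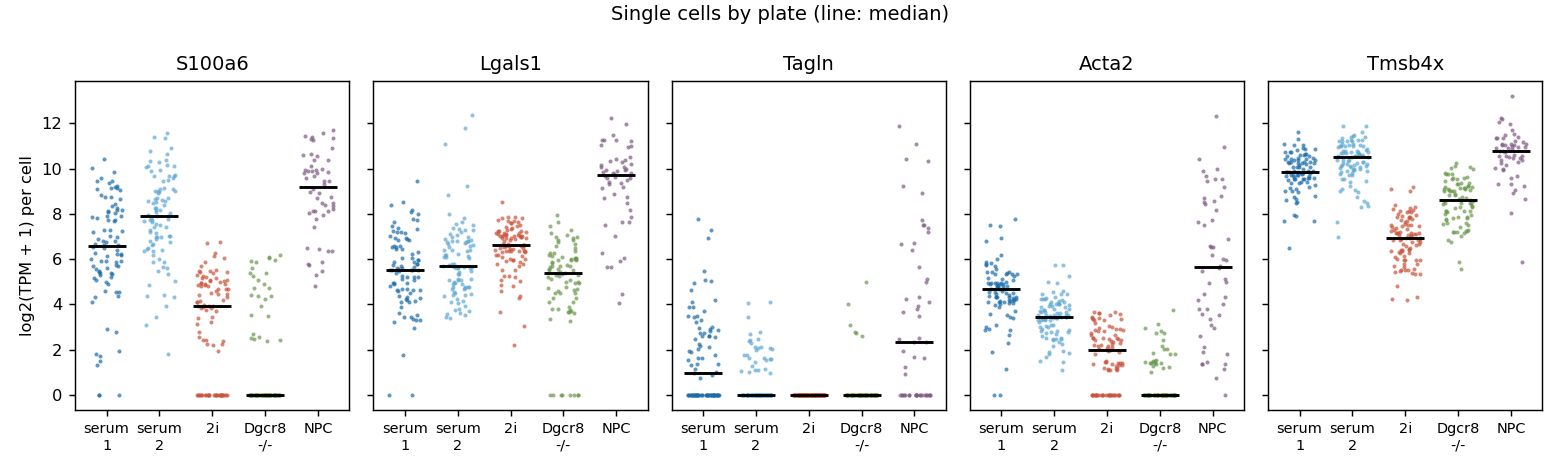
Each point is 1 cell, on a log2(TPM + 1) axis, and lines mark plate medians. S100a6, Acta2 and Tmsb4x sit lower in 2i and Dgcr8 -/- cells than in serum cells, the Lgals1 median is highest among the mESC plates under 2i, and 3 Lgals1 points of serum plate 2 lie far above the rest.

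Within a plate the members were spread unequally. The SD over cells of log2(TPM + 1) for S100a6 was 2.36 and 1.97 on the serum plates, at percentiles 100 and 99.5 of the 200 genes nearest in mean level. It stayed high under 2i, at percentile 99.5. Serum S100a6 ran from 0 to 1381 TPM on plate 1 and from 2.48 to 3018 on plate 2. The Acta2 SD lay at percentiles 87 and 36 in serum, 34 under 2i, 19.5 without Dgcr8 and 92.5 in NPCs. Tagln was carried by few cells, and the top 10% of cells held 76.3% and 64.5% of its summed TPM in serum. For Tmsb4x that share was 20.6% and 21.1%. In serum the SD lay at percentiles 97.5 and 98 for Lgals1, 100 and 87 for Tagln, and 80.5 and 96.5 for Tmsb4x.

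On serum plate 2, 3 cells held Lgals1 at 5214, 3528 and 2183 TPM, where the next cell held 597. The same 3 cells held ranks 1 to 3 on that plate for Krt8 (1577, 1136 and 825 TPM), Krt18, Krt7, Krt19 and Plac1, markers of trophoblast and simple epithelium. Plac1, a placental gene, read 6266, 2114 and 779 TPM in them and 0 in the median cell. Rhox9, a homeobox gene chosen here after its values were seen, read 3048, 2089 and 3726 TPM against a median of 1.31. The first of them also had the lowest Dppa5a of the plate, a pluripotency gene, at 194 TPM against a median of 9842, while the other 2 held 8977 and 11830. Of the mesenchymal markers that these plates hold, Vim read 2.03, 0 and 2.52 TPM in them (median 5.03), Fn1 307, 580 and 619 (median 1022) and Sparc 0, 44.7 and 52.5 (median 47.6).

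**Figure D3:**
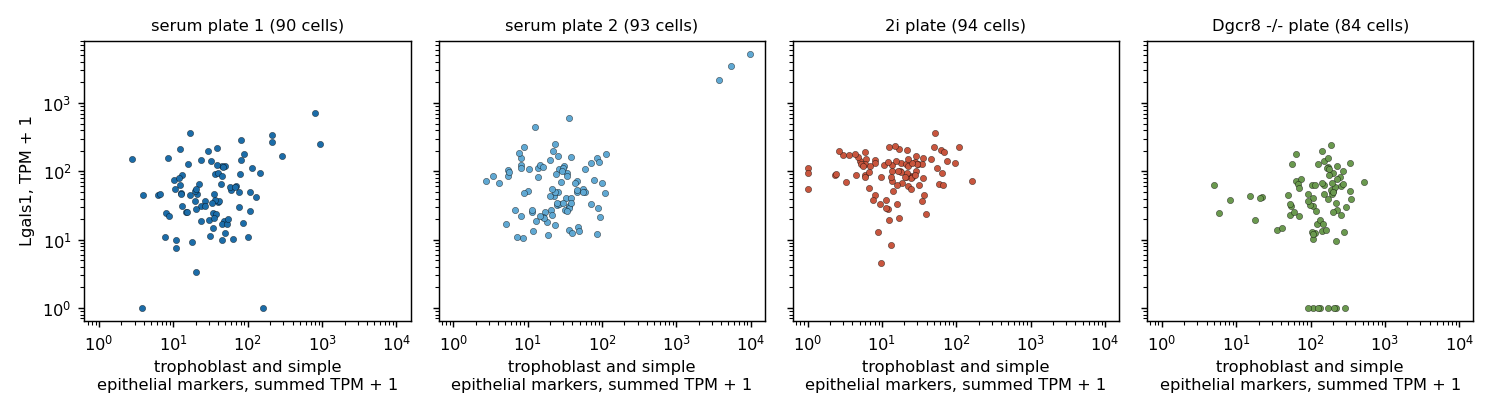
Lgals1 against the summed level of 9 trophoblast and simple epithelial markers, 1 point per mESC, both on log axes of TPM + 1. The 3 cells at the upper right of serum plate 2 hold Lgals1 at 2183 to 5214 TPM and marker sums above those of all other cells plotted.

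Without these 3 cells the serum plate 2 mean of Lgals1 was 78.2 TPM (90 cells), close to the 79.7 of plate 1. The plate change of Lgals1 then became 0.45 under 2i, with no test. The other members were little altered, with S100a6 at 446 TPM against 473 and Tmsb4x at 1487 against 1490. Marker sums above 500 TPM were found in 2 cells of serum plate 1, 3 of plate 2, 1 knockout cell and no 2i cell. No doublet caller was run, and the part of doublets in these cells was not tested.

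Most pairs of members were positively correlated across serum cells, 9 of 10 on plate 1 and 10 of 10 on plate 2, though several lay close to 0 on plate 1. The share of positive pairs over all genes was not computed, so these counts cannot be read as particular to the members. The difference from the comparison cultures was not tested, and without Dgcr8 there is little room for a correlation, with S100a6 and Acta2 at 0 in 57 of 84 cells each and Tagln in 78. The mean Spearman correlation over the 10 pairs was 0.20 and 0.24 on the serum plates, and 0.01 without Dgcr8. Under 2i it was -0.0023 over the 6 pairs without Tagln. Cells of a plate share a chip and differ in depth, and these values are descriptions. S100a6 and Tmsb4x gave the closest serum pair on plate 2 (0.59, and 0.35 on plate 1), and S100a6 with Lgals1 gave 0.37 and 0.38. Lgals1 with Tagln gave 0.47 and 0.25. Acta2 gave 0.08 and 0.21 with S100a6, and 0.08 on both plates with Lgals1. Given the number of genes detected per cell, with which Lgals1 itself correlated at 0.35 and 0.52, the serum means were 0.15 and 0.19.

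**Figure D4:**
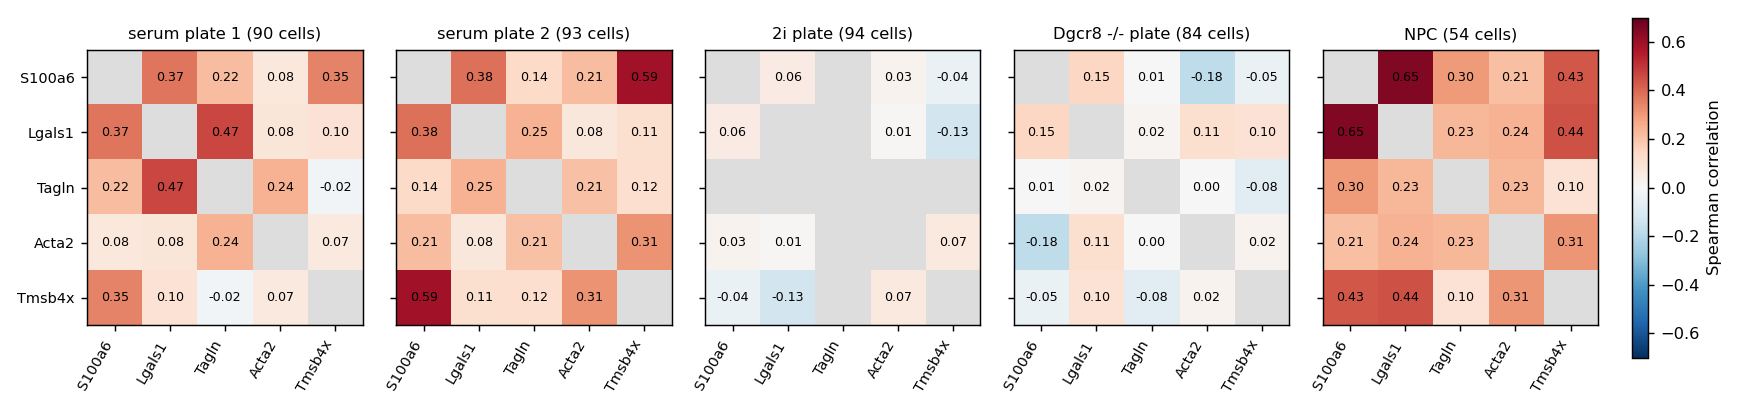
Spearman correlation across cells for each pair of members, by plate, with grey for the diagonal and for Tagln under 2i, where it is listed at 0 in each cell. Values are mostly positive on the serum plates and in NPCs, up to 0.59 and 0.65, and lie between -0.18 and 0.15 in cells of the 2i and Dgcr8 -/- plates.

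The genes most like each member across serum cells differed from member to member. Likeness was the mean over both serum plates of the Spearman correlation, among 9985 genes. For S100a6 the closest were its relative S100a11 (0.62), Cox4i1 (0.61), a respiratory chain subunit, and Atxn10 (0.53). For Lgals1 they were Rlim (0.56), Crip2 (0.54), Actr2 (0.54), a subunit of the Arp2/3 complex that nucleates branched actin, Hmgn5 (0.53) and Gpx4 (0.52). For Tagln they were Tpm1 (0.48), Rlim (0.40), Arid2 (0.37), Lgals1 (0.36) and the actin-binding calponin Cnn2 (0.35). Tpm1 gave 0.66 on plate 1 and 0.29 on plate 2. Tmsb4x was most like Tfpi (0.47), S100a6 (0.47), Cd63 (0.46), Nup62cl (0.40) and Ap2m1 (0.39).

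Acta2 was most like other actins. Apart from AK080187, a second name with identical values, these were Acta1 (0.69), Actc1 (0.67), Actg1 (0.65) and Actb (0.63). Actin genes have near-identical coding sequences and the single-cell reads were 25 bases long per the labels, so the share of each actin in these mESC values is uncertain. Under 2i cells Acta2 was again closest to Acta1 (0.52) and Actg1 (0.51), followed by Ano9 (0.45) and Actg2 (0.39). Of S100a6, Lgals1 and Tmsb4x, none kept a serum neighbour among its 5 closest genes under 2i, where they included Slit2 (0.40) for S100a6, Acap2 (0.40) for Lgals1 and 2810002D19Rik (0.43) for Tmsb4x. Without Dgcr8 the closest were Gm5617 (0.42) for S100a6, Rps26 (0.44) for Lgals1, Hdac11 (0.41) for Tagln, Maff (0.49) for Acta2 and Stmn1 (0.44) for Tmsb4x. These were the highest of 12722 genes compared under 2i and of 12699 to 12700 without Dgcr8. The highest of so many correlations can be sizeable among unrelated genes. No level for that was computed, here or for the NPCs below, so the named genes and their change between cultures are descriptions.

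NPCs, read in a separately made table and so not tested against mESCs, held the highest mean of each member. S100a6 averaged 875 TPM and Lgals1 1042, with medians of 592 and 839 and both found in all 54 cells. Tmsb4x averaged 1965 TPM (median 1734). Acta2 averaged 330 TPM with a median of 49.4 and was found in 52 cells. Tagln averaged 207 TPM with a median of 4.05 and was found in 32 of 54 cells (59.3%, exact binomial 95% interval 45 to 72.4%). The top 10% of cells held 87.3% of summed Tagln and 63% of summed Acta2. All 5 members reached 100 TPM in 7 of 54 NPCs, in 1 of 90 cells on serum plate 1 and in no other mESC.

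The NPC with the most Tagln (3817 TPM) was also first on its plate for Acta2 (5096), Lgals1 (4775), Tmsb4x (9452), Tpm1 (7916), Anxa2 (4794) and Tgfb1i1 (466), a focal adhesion protein. Of the 25 mesenchymal markers, its Mgp and Postn were 0, genes at 1 TPM or more in just 8 and 33 of the 54 NPCs. Its other mesenchymal markers are not reported here, so these values do not describe the list. The identity of this cell was not tested. Among NPCs the mean correlation over the 10 pairs was 0.31, led by S100a6 with Lgals1 at 0.65. By likeness, S100a6 stood nearest to Slc6a6 (0.66), Lgals1, Inhbb (0.60), Msn (0.58), the membrane linker moesin, and S100a4 (0.57). Lgals1 stood nearest to S100a6, Sh3kbp1 (0.61), Slc6a6 (0.55), Vcan (0.55) and B2m (0.55). Tmsb4x was closest to Actg1 (0.64), Msn (0.56), Prdx2 (0.56) and Anxa1 (0.55). Tagln was closest to Tgfb1i1, Etnk1, Tes, Tmem19 and Inhbb (0.50 to 0.51). Acta2 was closest to Zfhx3 (0.55), Akt1 (0.51), Tpm4 (0.51) and Anxa2 (0.51). Acta1, its nearest gene in serum mESCs, averaged 0.58 TPM in NPCs.

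The NPC label was set against marker lists. Nes (nestin) and Pax6 were each at 1 TPM or more in 49 of 54 cells, with means of 27.8 and 202 TPM. The 8 pluripotency markers summed to 705 TPM on average, against 8069 to 23033 on the mESC plates. Single NPCs were uneven, with sums from 3.25 to 11178 TPM. Each marker was at 1 TPM or more in 7 (Tdgf1) to 43 (Klf4) of the 54 cells, with Nanog in 30 and Pou5f1 in 9. Across NPCs their correlations with S100a6 ran from -0.42 (Tdgf1) to 0.01 (Sox2). Of 25 fibroblast and mesenchymal markers, 22 averaged 1 TPM or more, and Col1a2 (0.50), Lum (0.97) and Twist2 (0.88) did not. The levels were uneven, with Thy1 at 1.15 TPM in 2 cells and Col1a1 at 5.73 in 14, but Vim at 1121 TPM, Sparc at 1430, Cdh2 at 79.7 and Prrx1, a mesenchymal transcription factor, at 84.2 TPM in 53 of 54 cells. Mgp averaged 212 TPM and came from 8 cells. The correlation of S100a6 with these markers across NPCs ran from -0.18 (Lum) to 0.56 (Vim), with Sparc at 0.32 and Prrx1 at 0.02. The part of mesenchymal cells, or of cells with pluripotency RNA, in the members' NPC levels was not tested.

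ChIP-seq gave 1 library per mark and culture, so these are comparisons of libraries with no replicate check. The table counts reads in 1 window of 1000 bases per gene, on build mm9. The windows were chr3:90416315-90417315 for S100a6, chr15:78756654-78757654 for Lgals1, chr9:45743641-45744641 for Tagln, chr19:34329326-34330326 for Acta2 and chrX:163646650-163647650 for Tmsb4x. Their place in the gene is not stated. Of 22659 neighbouring windows, 43.5% lay as far apart as the RefSeq 5′ ends, within 50 bases, and 3.72% as far apart as the 3′ ends. Ratios are log2 of counts + 1 relative to the median window, with intervals that cover counting error only.

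H3K4me3, a mark of active promoters, was lower at Lgals1 and S100a6 in both cultures. Lgals1 had 203 reads in serum, 33 under 2i and 21 without Dgcr8. Its relative ratios were -1.96 and -1.94, at percentiles 1.41 and 0.0615 of windows with a mean count of at least 10 in the libraries compared. S100a6 had 157, 34 and 22 reads, with ratios of -1.55 and -1.51 (percentiles 2.99 and 0.184). After division by input the 2i ratio of S100a6 was -0.51, within 2-fold. Under 2i 7.53% of windows were more than 2-fold lower, and without Dgcr8 1.12% were. Tagln had 56, 11 and 41 reads and Tmsb4x 513, 95 and 296, so that both were more than 2-fold lower under 2i (-1.63 and -1.80) and not without Dgcr8 (0.83 and 0.48). Divided by input, the 2i ratio of Tmsb4x was -0.23. Acta2 had 14, 10 and 7 reads, near its input counts of 22, 17 and 11.

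H3K27ac, a mark of active promoters and enhancers, went the same way at S100a6, with 180 reads in serum, 82 under 2i and 32 without Dgcr8 and ratios of -1.31 and -2.28 (-0.30 and -1.98 after division by input). At Lgals1 it read 90, 84 and 30, lower without Dgcr8 (-1.38) and little changed under 2i (-0.28). At Tagln it read 136, 41 and 56 (-1.89 and -1.09). At Tmsb4x it read 185, 91 and 250 (-1.20 and 0.61). More than 2-fold lower were 3 of the 5 members in either culture, where 10.2% of windows under 2i and 7.53% without Dgcr8 were. After division by input, 1 member (Tagln) remained under 2i and 3 without Dgcr8. Acta2, with 20, 19 and 12 reads, was not among them.

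RNA polymerase II read 69, 21 and 34 at Lgals1 (-1.02 and -1.15, the first -0.86 after division by input) and 47, 16 and 16 at S100a6 (-0.85 and -1.65). At Tmsb4x it read 200, 56 and 313 (-1.17 and 0.49). The count was thus higher at Tmsb4x without Dgcr8 than in serum while its RNA there was lower. Tagln (43, 27 and 47 reads) and Acta2 (16, 11 and 19) lay near the median window. Of windows with a mean count of at least 10, 7.81% under 2i and 4.37% without Dgcr8 were more than 2-fold lower for polymerase. Input at Tmsb4x was 13, 5 and 8 reads, and after division by input its 2i ratios turned to 0.34 for H3K27ac and 0.35 for polymerase.

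H3K27me3, the Polycomb mark of silenced genes, was higher at S100a6 without Dgcr8, with 9 reads in serum, 14 under 2i and 43 without Dgcr8. The knockout ratio was 2.42 (counting interval 1.48 to 3.76), at percentile 99.8. Under 2i the ratio was 1.03 with an interval of -0.23 to 2.47. Of windows with a mean count of at least 10, 9.57% under 2i and 7.65% without Dgcr8 were more than 2-fold higher. Lgals1 had 23, 19 and 37 reads, a ratio of 0.94 without Dgcr8. Tagln (27, 28 and 33 reads), Acta2 (25, 21 and 14) and Tmsb4x (8, 5 and 7) did not pass 2-fold. H3K36me3 and H3K9me3 had 2 to 39 reads at the members and are not described further.

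**Figure D5:**
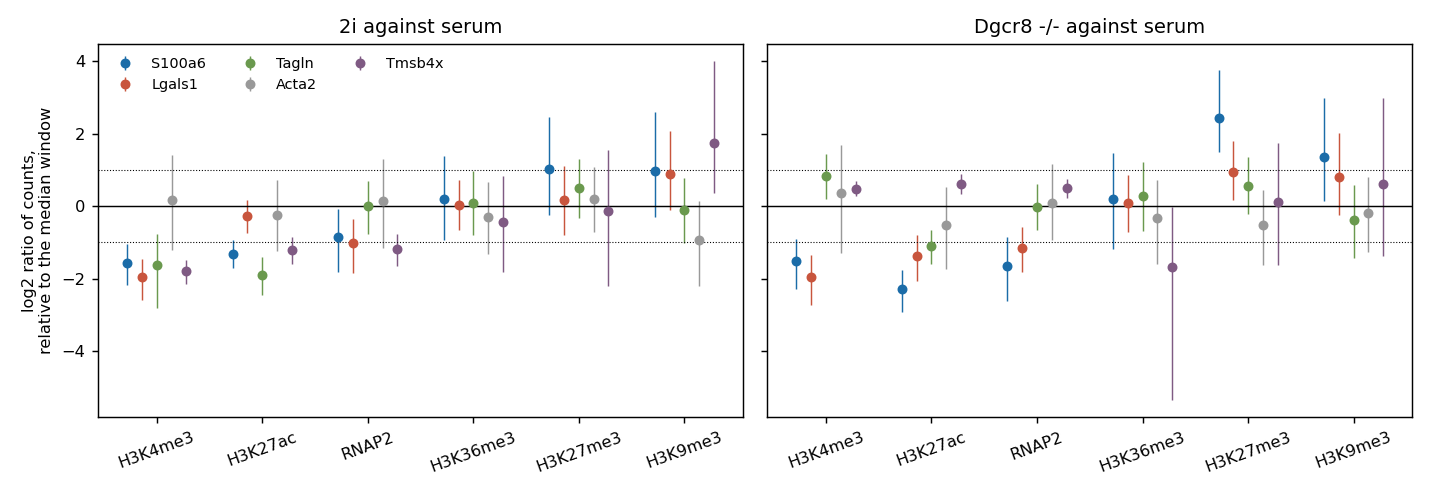
Log2 ratio of ChIP counts to serum, relative to the median window, for each member, mark and culture, with 1 library each and bars for 95% counting intervals. Dotted lines mark 2-fold. S100a6 and Lgals1 lie below -1 for H3K4me3 in both panels, and Tmsb4x lies below -1 under 2i and above 0 in Dgcr8 -/- for H3K4me3, H3K27ac and RNAP2 (RNA polymerase II).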

How the data were processed

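RNA was measured in bulk libraries and single cells and chromatin by ChIP-seq. Bowtie, RSEM and build mm9 are named in the submitters' processing notes, with neither version nor purpose. As deposited, RNA values are on a natural log scale of TPM + 1, and the deposited ChIP values are read counts per window, both judged from the values. The authors' filters: not given in the sources used here. Names turned into dates or bare numbers were left out (5, 56 and 29 in the bulk, mESC and NPC tables).

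The members, gene lists and tests were chosen with earlier results of these data known. Samples were grouped by the labels' culture and genotype, and cells by plate from the titles. TPM was recovered from the logs and tested as log2(TPM + 1) where the mean reached 1 TPM, with limma 3.58.1 in R 4.3.3 (trend, Benjamini-Hochberg adjusted p under 0.05), 1 mean per group. The bulk fit had 2 and the plate fit 1 residual degree of freedom before moderation, and single-sample groups were assumed to vary like the pairs. The lists came from general knowledge. List genes named were up to 3 called in both bulk contrasts and up to 3 called in 1, largest first, and fixed paralogs; likeness gave the 5 closest genes, among those at 1 TPM or more in at least 20% of the cells of each plate used. Some genes that these rules name are not reported here. No cell was left out. Detection was TPM of at least 1. ChIP windows with a mean count of at least 10 in the 2 libraries set the median and percentiles. The scripts were tested on simulated data. The correlations, counts and fits were repeated under other pseudocounts, filters, scalings, summaries over cells and with samples left out.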

Additional observations from a re-analysis of the deposited data

How the results depend on the processing

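Settings other than those added for the 3 Lgals1-high cells and for the top Tagln NPC were planned; those were chosen after seeing the data. All 120 alternative values of the bulk member changes stayed below 0, a direction that the choice of members fixes. Genes called in bulk 2i numbered 3237, 1469 with no filter, and 1843 to 2705 with 1 library left out (1843 and 1851 without a knockout library). In the bulk knockout 7486 became 4274 with a filter at mean TPM 5, and 5823 to 7349 with a library left out. Plate 2i calls (5056) became 7992 with the mean of log2 values and 1223 after quantile normalisation, and plate knockout calls (6567) became 4319 with medians over cells and 2588 after quantile normalisation. Same-numbered serum and knockout libraries did not deviate together (correlation -0.0252). With 2 libraries in each of these groups this cannot settle whether they were paired, and the labels do not say. A replicate block gave 3185 calls under 2i and 7693 without Dgcr8. List genes that rose in bulk 2i numbered 6 with no filter and 8 to 23 with a library left out, and those that fell 16 with no filter. Centring gave 22 that rose and 44 that fell in the bulk knockout. On the plates, list genes that rose under 2i were 47 (mean of log2), 46 (filter 5), 18 (centred) and 5 (quantile), and those that fell were 7, 8 and 27 under the first 3. Without Dgcr8 18 (centred) and 13 (quantile) rose, and 1 (medians), 9 (filter 5), 19 (centred) and 4 (quantile) fell.

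The cause of these shifts was not tested. Of the plate changes, Lgals1 under 2i turned positive with the mean of log2 values (0.77), medians (1.0), without serum plate 2 (0.43, and -0.83 without plate 1) and without the 3 cells (0.45). Centring made all 10 pass, at -5.26, -1.52, -3.60 and -3.51 for S100a6, Lgals1, Tagln and Acta2 under 2i, and -2.78, -2.96, -4.88 and -3.03 for Lgals1, Tagln, Acta2 and Tmsb4x without Dgcr8. A filter at 5 TPM made S100a6 (-3.95) and Acta2 (-2.19) under 2i and Lgals1 (-1.23), Acta2 (-3.34) and Tmsb4x (-1.48) without Dgcr8 pass; Tagln is removed by it. S100a6 under 2i also passed with a pseudocount of 0.1 (-4.01). Tmsb4x under 2i with medians (-3.25), and S100a6 without Dgcr8 with medians (-7.24) or quantile normalisation (-5.85), no longer passed. Leaving out a serum plate leaves no residual degree of freedom and gives values only. The mean correlation without Dgcr8 was -0.155 without cells at 0 for both genes. Division by input turned Tmsb4x under 2i to 0.34 (H3K27ac) and 0.35 (RNA polymerase II).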

Other observations

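Some relatives of the members were read differently in bulk and in cells. S100a10 averaged 89.5 and 84.1 TPM on the serum plates, 95.2 under 2i and 207 without Dgcr8, while its bulk level was highest in serum. Anxa2 fell in bulk 2i but averaged 8.31 and 7.13 TPM on the serum plates and 7.32 under 2i, and it rose on the knockout plate by 3.98 on the log2 scale (SE 0.25, limma adjusted p = 0.0168). Tpm1 changed by -0.44 under 2i and 0.78 without Dgcr8 on the plates (limma adjusted p = 0.361 and 0.168). Myl9 fell in both plate contrasts, by 3.91 and 3.74 (limma adjusted p = 0.0440 and 0.0388), as did Lgals9 under 2i, by 2.27 (limma adjusted p = 0.0399).

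On the plates 11 SRF/MRTF and contractile genes rose and 2 fell of 36 tested under 2i, and 14 rose and 1 fell without Dgcr8. Their medians were 1.12 and 1.38, beside 1.24 and 1.38 over all genes. Tagln correlated with the mean level of that list at 0.53 and 0.39 across serum cells, and Tmsb4x at 0.10 and 0.30. S100a4, at most 0.59 TPM on any mESC plate, averaged 175 TPM in NPCs and was found in 75.9% of them.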
